A study of Mus musculus with 2 samples.

Results

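Very long protein-coding genes were examined for H3K36me3 in macrophages grown from the bone marrow of C57BL/6J mice. A gene was included when its annotated body on chromosomes 1 to 19, from the first to the last base over all its transcripts, spanned at least 200 kb. This length rule took 952 of 20780 coding genes, or 4.58%. Their bodies summed to 412 Mb, with a median of 327 kb, and 55 were longer than 1000 kb. The study was a chromatin immunoprecipitation and sequencing (ChIP-seq) experiment on cells without stimulation, with 1 group of 2 biological replicates and no second condition. Both replicates are listed under a single donor record with sex and age not collected, and each library started from 10 ng of DNA. The values below are therefore given for replicate 1 and replicate 2 in turn, with no test across samples. Only peak lists were used, so no read depth is known for either replicate, and a gene without a peak was undetected, not shown to lack the mark. In bulk chromatin, fewer marked cells and less mark per cell cannot be told apart.

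H3K36me3, trimethylation of lysine 36 of histone H3, is laid down behind elongating RNA polymerase II by the enzyme Setd2 and marks the bodies of transcribed genes, as a rule more strongly towards the 3′ end. Genes of this length consist mostly of intron. Many of them encode synaptic, adhesion and channel proteins of neurons, and others encode large scaffolds, regulators of small GTPases and traffic proteins that blood cells also use. Macrophages are phagocytes whose migration and engulfment depend on those actin and membrane regulators.

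To show what a marked stretch of a long gene looks like, 1 coding exon is printed for each of the 4 long genes with most covered kb outside other coding genes. It lies under a strong replicate 2 peak of the gene, also carries a replicate 1 peak, and has 40 intron bases on either side. Each is written 5′ to 3′ on the gene's own strand from the GRCm38.p6 sequence (mm10 coordinates), with the exon in capitals. The Dock2 exon is at chr11:34705730-34705935 on the minus strand, under a peak with a deposited enrichment of 6.08 in replicate 2 and an overlapping one of 3.33 in replicate 1. The Dock8 exon is at chr19:25192147-25192370 on the plus strand, with enrichments of 4.42 in replicate 1 and 8.16 in replicate 2. The Wdfy4 exon is at chr14:33070540-33070805 on the minus strand, with enrichments of 4.20 and 6.49. The Wdfy3 exon is at chr5:101884003-101884240 on the minus strand, with enrichments of 3.66 and 7.12. The enrichment is the authors' value for each peak.
Dock2: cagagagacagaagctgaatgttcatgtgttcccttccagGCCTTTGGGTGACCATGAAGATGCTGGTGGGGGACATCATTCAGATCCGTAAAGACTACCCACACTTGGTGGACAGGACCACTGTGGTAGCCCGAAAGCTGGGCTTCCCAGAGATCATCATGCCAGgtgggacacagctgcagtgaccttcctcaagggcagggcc
Dock8: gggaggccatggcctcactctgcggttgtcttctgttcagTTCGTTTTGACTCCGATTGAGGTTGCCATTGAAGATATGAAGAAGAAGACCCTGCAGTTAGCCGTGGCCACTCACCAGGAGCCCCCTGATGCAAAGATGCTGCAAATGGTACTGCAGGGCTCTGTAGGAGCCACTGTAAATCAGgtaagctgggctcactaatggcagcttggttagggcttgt
Wdfy4: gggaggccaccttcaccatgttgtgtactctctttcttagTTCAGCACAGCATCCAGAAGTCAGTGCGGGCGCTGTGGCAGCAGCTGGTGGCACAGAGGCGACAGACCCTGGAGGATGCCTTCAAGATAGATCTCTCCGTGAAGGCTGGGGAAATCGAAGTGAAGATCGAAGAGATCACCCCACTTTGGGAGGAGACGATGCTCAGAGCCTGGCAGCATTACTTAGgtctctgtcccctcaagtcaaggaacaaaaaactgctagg
Wdfy3: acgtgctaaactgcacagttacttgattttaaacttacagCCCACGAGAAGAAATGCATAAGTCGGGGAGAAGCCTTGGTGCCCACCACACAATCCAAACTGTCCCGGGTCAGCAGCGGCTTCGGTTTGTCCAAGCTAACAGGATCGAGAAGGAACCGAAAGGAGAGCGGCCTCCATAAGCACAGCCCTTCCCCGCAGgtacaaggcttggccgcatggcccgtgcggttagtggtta

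Most long genes carried no peak. In 690 of the 952 (72.5%) neither replicate had a peak in the body, 183 (19.2%) had a peak in both, 7 in replicate 1 alone and 72 in replicate 2 alone. A peak in replicate 1 was present in 190 long genes (20.0%), against 30.5% of all coding genes of these chromosomes. In replicate 2 it was 255 (26.8%), against 39.9% of all. For a peak in both replicates the share was 19.2% of the long genes, 38.2% of genes of 100 to under 200 kb and 45.0% of genes of 50 to under 100 kb, with 30.2% over all coding genes. It was 41.4% of genes of 10 to under 50 kb and 11.7% of genes under 10 kb, a class below the long genes. This is a description without a test, since genes of 1 library share its depth.

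The label of the cells was set beside marker lists irrespective of gene length. The lists were chosen with earlier results of these data known, so they are a description and not an independent check. Of 10 macrophage markers, 8 had a peak in both replicates and 10 in replicate 2, where 25.5% to 67.2% of each body was covered. No peak lay in any of the 6 T cell, 6 B cell, 6 neutrophil, 6 fibroblast or 6 neuron markers in either replicate. Of all coding genes of these chromosomes, 30.2% had a peak in both replicates and 39.9% had one in replicate 2. In replicate 2, 24.6% had at least 20% of the body covered.

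How much of a long gene was covered? Peaks lay over 1829 kb of the long genes in replicate 1 and over 5860.2 kb in replicate 2, or 0.444% and 1.42% of their bases. Those kb are sums over genes, in which bases shared by overlapping long records count more than once. Of all peak bases on chromosomes 1 to 19, 6.36% and 7.35% lay inside long genes. In both replicates the coverage was concentrated in few genes, as the 10 most covered held 32.1% and 24.8% of it. The largest of these was the Gm20388 record (119 and 362 kb), with 98.8% of its covered bases in other coding genes. At least 10 kb was covered in both replicates in 51 long genes (5.36%), against 11.4% of genes of 100 to under 200 kb, 10.3% of those of 50 to under 100 kb and 3.30% of all coding genes. At least 20% of the body was covered in both replicates in only 3 long genes (0.315%), which were Dock8, Wdfy4 and Wdfy3, against 8.03% of all coding genes. In replicate 2 alone 33 long genes (3.47%) reached 20%, against 24.6% of all coding genes.

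Among genes that had a peak in both replicates, the median covered length of the long genes was close to that of the next class, and their covered share was lower. For the long genes the median covered length was 5.43 kb (replicate 1) and 20.7 kb (replicate 2). It was 5.28 and 19.5 kb for genes of 100 to under 200 kb, and 4.66 and 15.4 kb for genes of 50 to under 100 kb. The median covered share was 1.55% and 6.03% for the long genes, 3.96% and 14.5% for the next class, and 6.70% and 22.6% for the class of 50 to under 100 kb. With all genes that had a peak in replicate 2 counted, the median covered length in that replicate was 9.63 kb for the long genes and 14.4 kb for genes of 100 to under 200 kb. Within the 183 long genes, the Spearman correlation between length and covered kb was −0.17, a description across genes that share 2 libraries. The covered bases of a long gene lay in many separate stretches, a median of 7 in replicate 1 and 18 in replicate 2, and the longest stretch had a median of 1.22 and 2.71 kb.

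Single peaks in long genes were close in enrichment and length to those elsewhere. The median enrichment was 3.15 over 2068 peaks inside long genes in replicate 1, against 3.22 over 29199 peaks inside other coding genes. In replicate 2 it was 3.82 over 4652 peaks, against 3.95 over 51636. Their median lengths were 748.5 bp in replicate 1 and 910.0 bp in replicate 2, against 746 and 1005 bp in other coding genes.

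The replicates ranked the long genes alike but differed in amount. The Spearman correlation of the covered kb, over the 262 genes marked in at least 1 replicate, was 0.898, a value across genes and not across independent samples. Of the 183 genes with a peak in both, 181 were more covered in replicate 2 and 2 in replicate 1, and the median ratio of replicate 2 to replicate 1 was 3.65. Of the replicate 1 bases, 84.5% were also covered in replicate 2, and 26.4% of the replicate 2 bases were also covered in replicate 1. Over the whole lists replicate 1 held 32098 peaks and replicate 2 held 58505.

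Regulators of small GTPases, which direct the actin cytoskeleton, included the most covered long genes whose peaks lay mostly outside other genes, Dock2 and Dock8. Dock2, an activator of the small GTPase Rac that is restricted to blood cells, spans 557 kb on chromosome 11 and had 64.8 kb covered in replicate 1 and 177 kb in replicate 2. The first peak lay 49.9 kb after the start in replicate 1 and 14.4 kb in replicate 2, and 63.7 and 160 kb of its covered bases lay outside the nested gene Fam196b and other coding genes. Dock8, an activator of Cdc42 in immune cells, had 73.7 and 123 kb of its 203 kb covered, 36.3% and 60.7%, which was the highest share of any long gene in each replicate. Arhgap10, a GTPase-activating protein, had 34.8 and 88.0 kb covered of 268 kb. Trio, a guanine nucleotide exchange factor, had 21.2 and 87.2 kb. Dock10 had 31.3 and 74.1 kb, and Srgap2, which shapes membrane protrusions, had 21.8 and 45.1 kb. The list of Dock, Elmo and other small GTPase regulators held 27 long genes, of which 12 had a peak in both replicates (44.4%, against 19.2% of all long genes) and 6 had at least 10 kb in both, beside 51 of all 952. The 2 longest with no peak in either replicate were Arhgap15 (647 kb), a GTPase-activating protein for Rac, and Kalrn (604 kb), Kalrn being a relative of Trio known mainly from neurons.

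**Figure D1:**
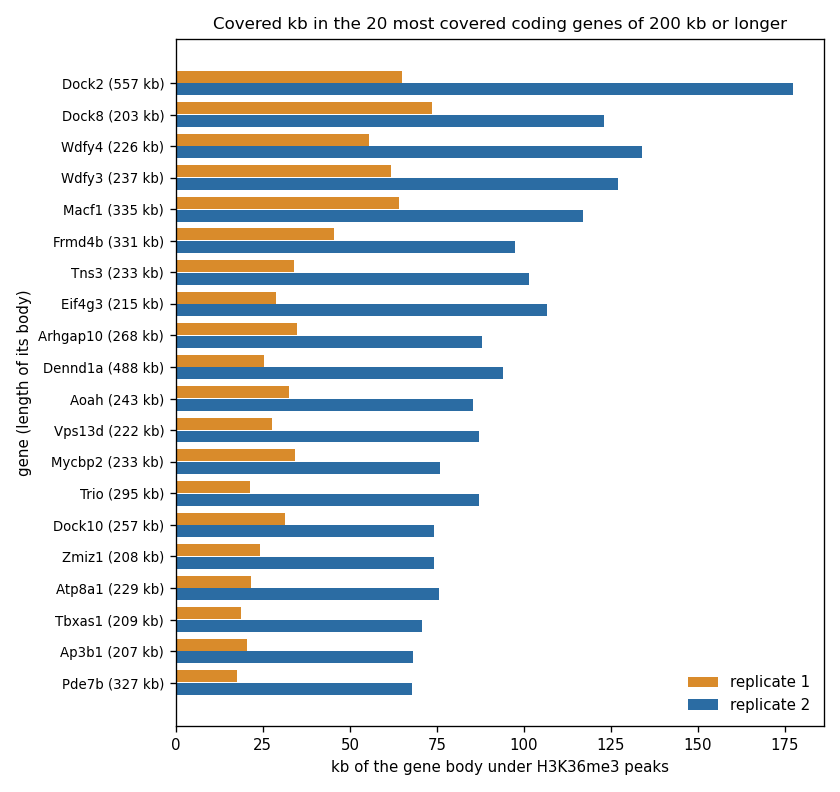
Covered kb (x axis) of the 20 long genes with the most kb under peaks, among those with under 50% of their covered bases inside another coding gene, with the body length beside each name. Orange bars are replicate 1 and blue bars replicate 2; Dock2 leads with 64.8 and 177 kb, and the blue bar is the longer one in every gene drawn.

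Cytoskeletal linkers and adhesion scaffolds had a peak in both replicates in 10 of 29 long genes (34.5%, against 19.2% of all) and at least 10 kb in 4. Macf1, which links microtubules to actin, had 64.1 and 117 kb covered of 335 kb, all of it from 140 kb in replicate 1 and 130 kb in replicate 2 onwards from the annotated start. Frmd4b, a FERM domain scaffold, had 45.5 and 97.4 kb, beginning 189 and 133 kb into the gene. Tns3, a tensin of focal adhesions, had 34.0 and 102 kb. Magi2 (1478 kb) and Pard3b (1003 kb), scaffolds of cell junctions, were the longest of this list with no peak.

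Of the 8 lists, the membrane traffic genes had the largest share with a peak in both replicates, 14 of 25 (56%, against 19.2% of all long genes), and 5 had at least 10 kb covered in both replicates. Dennd1a, an exchange factor for a Rab GTPase of endosome recycling, had 25.4 and 94.1 kb covered of 488 kb. Vps13d, a lipid transfer protein, had 27.7 and 87.2 kb. Atp8a1, a flippase that moves phospholipids between membrane leaflets, had 21.7 and 75.7 kb. Lrp1b (2058 kb), a lipoprotein receptor relative, and Mgat4c (709.98 kb), a glycosyltransferase gene, were its longest members with no peak.

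Transcription factors and chromatin regulators had a peak in both replicates in 13 of 33 long genes (39.4%, against 19.2% of all). At least 10 kb was covered in 2 (6.06%), a share near the 5.36% of all long genes. The most covered was Runx1, a regulator of blood cell development, with 9.88 kb in replicate 1 and 67.1 kb in replicate 2, a wide gap between the replicates. The members at 10 kb or more in both were the chromatin remodeller Chd9, with 18.4 and 43.6 kb, and Med13l, a subunit of the Mediator kinase module, with 18.3 and 42.1 kb. Auts2 (1106 kb), known from brain development, and Zbtb20 (767 kb), a zinc finger repressor, were the longest with no peak.

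Kinases, phosphatases and signalling scaffolds had a peak in both replicates in 11 of 42 long genes (26.2%, against 19.2% of all). At least 10 kb in both was reached by 2 (4.76%, against 5.36% of all), of which 1 (Fgfr2) did so through other genes inside its record, described below. Ppm1h, a protein phosphatase, had 6.14 and 58.2 kb covered, and Itpr1, a calcium release channel of the endoplasmic reticulum, 6.54 and 39.9 kb. Ptprd (2271 kb), a receptor phosphatase of neurons, and Pde4d (1504 kb), a cyclic AMP phosphodiesterase, had no peak. Of RNA processing, ubiquitin and genome maintenance genes, 5 of 22 had a peak in both (22.7%, against 19.2% of all long genes) and 2 at least 10 kb (9.09%, against 5.36%), so the share with a peak was near that of all long genes. The members at 10 kb were the splicing regulator Celf2, with 13.4 and 41.7 kb, and the RNA-binding protein gene Rbms1, with 10.5 and 35.6 kb, followed by Tnrc6b, which acts in microRNA silencing, with 7.16 and 25 kb. Macrod2 (1998 kb), which removes ADP-ribose from proteins, and Fhit (1612 kb), a gene at a fragile site, were the longest with no peak.

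A mixed list of surface receptors and immune regulators had a peak in both replicates in 1 of 14 (7.14%, against 19.2% of all long genes). That gene also had at least 10 kb in both (7.14%, against 5.36% of all). The long members of this list also include semaphorins, glypicans and a latrophilin. Long genes of immune cells such as Dock2, Dock8 and Aoah were not in it. The gene with a peak was Abr, a GTPase-activating protein for Rac that restrains phagocyte activity, with 11.8 and 43.2 kb. The B cell scaffold gene Bank1 (273 kb) had none, nor did the longest members, Gpc5 (1433 kb) and Gpc6 (1051 kb), which encode glypicans. Of 107 neuronal adhesion, synapse and channel genes, 2 had a peak in both replicates (1.87%, against 19.2% of all long genes) and none had 10 kb. In those 2 genes, the covered bases lay inside another coding gene that overlaps the body. It was the ubiquitin ligase gene Trim32 for Astn2 (1.13 and 2.91 kb) and the mRNA decapping gene Dcp1a for Cacna1d (0.641 and 6.41 kb). The Cacna1c record had peaks in replicate 2 only, of 2.73 kb in all, and they lay in the paralogue Dcp1b.

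Some of the most covered long genes belonged to none of these lists. Wdfy4, a BEACH domain protein needed for cross-presentation in dendritic cells, had 55.6 and 134 kb covered of 226 kb. Its relative Wdfy3, an adaptor for the autophagy of protein aggregates, had 61.9 and 127 kb of 237 kb. Eif4g3, a scaffold of translation initiation, had 28.9 and 107 kb, the ubiquitin ligase gene Mycbp2 had 34.2 and 75.8 kb, and Aoah, whose product removes acyl chains from bacterial lipopolysaccharide, had 32.5 and 85.5 kb. Tbxas1, the synthase of thromboxane, had 18.8 and 70.7 kb. The 654 long genes outside the 8 lists had a peak in both replicates in 115 (17.6%, against 19.2% of all). At least 10 kb in both was covered in 29 (4.43%, against 5.36%), so both shares were near those of all long genes.

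**Figure D2:**
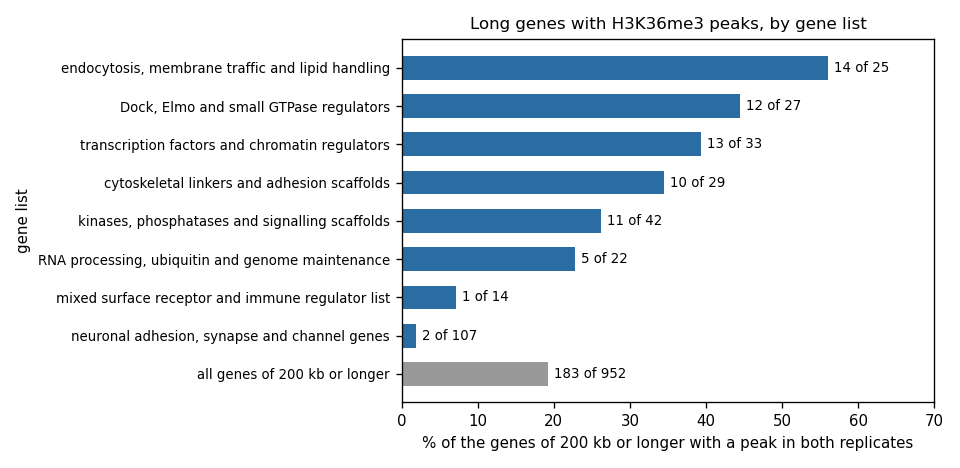
Share of long genes with a peak in both replicates (x axis, %) in each of 8 gene lists (blue) and over all 952 long genes (grey), with counts beside the bars. Membrane traffic genes reach 14 of 25 and neuronal genes 2 of 107, beside 183 of 952 over all.

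Several records owed their coverage to other genes inside them. Gm20388, the longest record at 4435 kb on chromosome 8, had 119 and 362 kb covered, but 98.8% of it lay in other coding genes such as Tcf25, and 1.32 and 4.60 kb lay outside them. The Fgfr2 record of 2961 kb had 33.2 and 106 kb covered, of which 0.781 and 2.94 kb lay outside other coding genes such as Abraxas2. The covered bases of Atp5o, 14.9 and 54.2 kb, lay in other genes (97.9%), mostly Itsn1, and those of Gm37240, 6.55 and 27.6 kb, lay wholly in others such as Fbxw7. In 24 of the 183 genes with a peak in both replicates, and in 4 of the 51 with 10 kb in both, at least 50% of the covered bases lay inside another coding gene.

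Where along the body did the mark lie? Coverage rose towards the 3′ end. Of the covered bases of genes with a peak in both replicates, 76.8% in replicate 1 and 72.9% in replicate 2 lay in the 3′ 50% of the body. For genes of 100 to under 200 kb these shares were 77.5% and 73.5%, and for genes of 50 to under 100 kb 71.4% and 69.3%. Over 10 equal bins, the mean covered share of the long genes was 0.91% in the bin at the start and 10.5% in the bin at the end in replicate 1, and 4.27% and 27.4% in replicate 2. In the bin at the start, genes of 100 to under 200 kb had 1.12% and 4.81% and genes of 50 to under 100 kb 1.39% and 5.02%. In bin 5 the long genes had 2.26% and 7.42%, and genes of 100 to under 200 kb had 4.89% and 15.1%. Exons of the 183 long genes were themselves unevenly placed. They made up 2.86% of the bin at the start, 1.84% of bin 5 and 14.8% of the bin at the end. The part of exon placement in the rise of coverage was not tested.

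**Figure D3:**
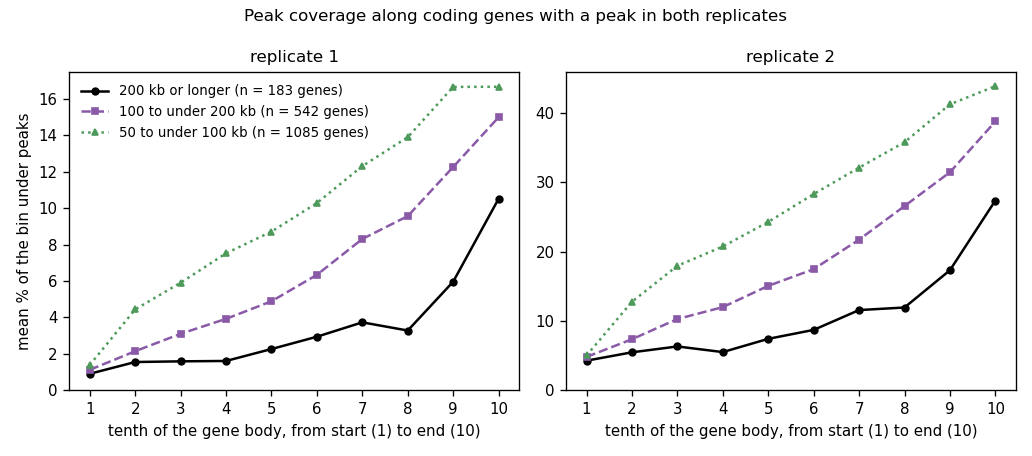
Mean share of each of 10 equal bins under peaks (y axis, %) from annotated start to annotated end (x axis), over genes with a peak in both replicates, with 1 panel for each replicate. The black line (200 kb or longer, 183 genes) ends at 10.5% in replicate 1 and 27.4% in replicate 2 and runs below the purple (100 to under 200 kb) and green (50 to under 100 kb) lines.

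Measured in kb, the covered part of a long gene began far from its start. The first peak lay a median of 130 kb from the annotated start in replicate 1 and 58.1 kb in replicate 2, that is at 50.3% and 21.6% of the body. In genes of 100 to under 200 kb it lay at 54.9 and 28.6 kb, or at 43.5% and 24.2% of the body. In genes of 50 to under 100 kb it lay at 39.5% and 23.4% of the body. As a share of the body, the long genes were thus later than these classes in replicate 1 and slightly earlier in replicate 2. The last peak ended a median of 5.80 and 2.78 kb before the annotated end. In the first 20 kb the mean covered share was 0.719% and 3.88%, and in the last 20 kb 11.8% and 30.5%. The last peak came within 10 kb of the end in 104 and 135 of the 183 genes, and the first peak within 10 kb of the start in 16 and 35. All covered bases lay in the 3′ 50% of the body in 92 and 59 genes. The first peak was nearer to the start in replicate 2 than in replicate 1 in 158 of 183 genes.

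Not every gene followed that shape. Vps13d had only 6.22% and 24.0% of its covered bases in the 3′ 50%, and its last peak ended 98.3 and 55.6 kb before the end. Snx29, a sorting nexin gene, had 9.70% and 17.9% there, and Atg7, an enzyme of autophagosome formation, 1.14% and 5.10%. In Exoc4, a subunit of the exocyst, the peaks (1.94 and 2.78 kb) ended 695 and 677 kb before the end of a 725 kb body, and in Cdkal1 (0.683 and 1.49 kb) 654 and 656 kb before the end. At the opposite extreme, the first peak of the transcription factor gene Zfhx3 lay 857 and 850.04 kb from the start of its 1019 kb body.

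In some long genes the first peak lay shortly after a transcript start inside the gene. Of the 183 genes, 112 have an annotated coding transcript that starts at least 50 kb inside the body. In 48 of them the same inner start was the nearest annotated coding start before the first peak in both replicates, and in 9 others it was an inner start that differed between the replicates. In 5 of the 48, at least 50% of the covered bases lay in another coding gene. From the inner start to the first peak the median distance over the 48 was 28.0 kb (replicate 1) and 17.6 kb (replicate 2), and in 21 it was within 25 kb in both. The distance reached 289 and 167 kb in Nav2. Over all 183 genes the median distance from the nearest coding start before the first peak, inner or not, was 36.3 and 19.4 kb. Of the 72 genes whose first peak lay over 100 kb from the annotated start in both replicates, 32 had a coding start within 50 kb before it in both. An annotated start is a position in the annotation, and initiation was not measured here.

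Ptpro, a receptor tyrosine phosphatase of which a short form is known from blood cells is 1 example. Its body is 211 kb long and a transcript start lies at 158 kb. The first peaks lay at 162 and 161 kb, and 26.1 and 41.8 kb were covered in the whole body. All of it lies after that start because the start was chosen as the nearest before the first peak. Frmd4a had its inner start at 542 kb and first peaks at 560.5 and 548 kb in a 596 kb body. Pde4b, a cyclic AMP phosphodiesterase with known short forms, had an inner start at 502 kb and first peaks at 504 and 504 kb in a 519.7 kb body. March1, a membrane ubiquitin ligase that lowers surface MHC class II, had an inner start at 768 kb and first peaks at 791 and 777 kb in an 854 kb body. In Celf2 the inner start was at 788 kb and the first peaks were at 820.2 and 809 kb. In Rgl1, an exchange factor for Ral, the values were 141 kb for the start and 146 and 143 kb for the peaks, and in the transcription factor gene Creb5 286 kb for the start and 290.1 and 293 kb for the peaks. Not all long genes had such a start: Tns3 has 1 annotated coding transcript, and its first peaks lay at 117 kb in replicate 1 and 8.55 kb in replicate 2.

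**Figure D4:**
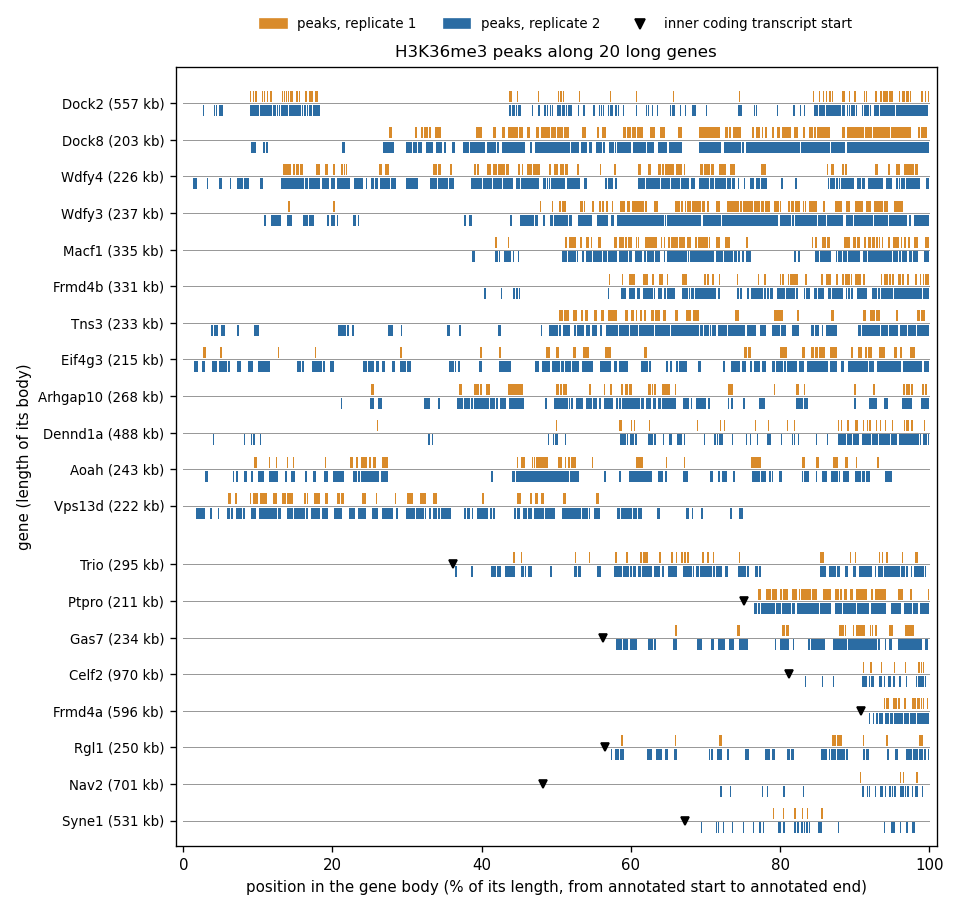
Peaks of replicate 1 (orange, above each line) and replicate 2 (blue, below it) along 20 long genes, as position in % of the body from annotated start to annotated end (x axis). The upper 12 genes have the most covered kb. The lower 8 have the most among genes whose nearest coding start before the first peak is the same inner start in both replicates. Only inner starts at least 100 kb inside the gene were taken (black triangle). All peaks of these 8 genes lie to the right of the triangle because of this choice, so that is not a result.

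The bases just before those inner starts are shown beside the bases before the annotated starts for 3 such genes, to put the sequence at both positions side by side. Each run is the 150 bases before a start, 5′ to 3′ on the gene's strand (GRCm38.p6), with CG dinucleotides in capitals. The genes are the 3 most covered with an inner start at least 100 kb inside, first peaks within 25 kb of it in both replicates and no annotated exon of the gene in either window. Where several starts lay within 2 kb, the window before one free of exon bases was taken. For Ptpro (plus strand) the windows are chr6:137410571-137410720 before the inner start and chr6:137252169-137252318 before the annotated one, with 0 and 1 CG. For Rgl1 (minus strand) they are chr1:152625218-152625367 and chr1:152766352-152766501, with 11 and 23 CG. For Creb5 (plus strand) they are chr6:53573150-53573299 and chr6:53287120-53287269, with 4 and 17 CG. The windows before the inner starts had a GC content of 38.7% in Ptpro, 58% in Rgl1 and 55.3% in Creb5, against 58%, 76% and 69.3% before the annotated starts. No base of these 6 windows was covered by a peak in either replicate.
Ptpro, before the inner start: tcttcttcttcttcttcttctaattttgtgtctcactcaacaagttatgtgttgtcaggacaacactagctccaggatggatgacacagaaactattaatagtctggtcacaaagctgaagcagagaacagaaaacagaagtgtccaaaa
Ptpro, before the annotated start: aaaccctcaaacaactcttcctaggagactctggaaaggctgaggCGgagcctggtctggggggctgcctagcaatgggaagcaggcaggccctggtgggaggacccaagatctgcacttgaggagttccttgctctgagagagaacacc
Rgl1, before the inner start: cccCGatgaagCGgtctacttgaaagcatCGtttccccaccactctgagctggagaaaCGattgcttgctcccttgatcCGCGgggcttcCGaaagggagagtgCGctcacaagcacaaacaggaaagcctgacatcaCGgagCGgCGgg
Rgl1, before the annotated start: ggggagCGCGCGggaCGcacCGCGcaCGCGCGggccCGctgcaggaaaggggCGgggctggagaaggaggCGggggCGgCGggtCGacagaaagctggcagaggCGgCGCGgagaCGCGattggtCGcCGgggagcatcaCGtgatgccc
Creb5, before the inner start: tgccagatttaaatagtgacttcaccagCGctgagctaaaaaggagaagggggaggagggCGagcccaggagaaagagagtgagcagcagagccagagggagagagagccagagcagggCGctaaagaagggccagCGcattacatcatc
Creb5, before the annotated start: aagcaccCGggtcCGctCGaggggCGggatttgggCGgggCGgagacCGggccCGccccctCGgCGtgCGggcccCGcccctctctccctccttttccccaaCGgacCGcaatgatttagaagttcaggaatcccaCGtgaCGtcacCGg

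Within long genes the peaks stayed close to exons. Exons made up 3.13% of the bodies of the 183 genes with a peak in both replicates but 13.7% of the covered bases in replicate 1 and 11.6% in replicate 2. Of exon bases, 11.9% and 31.1% were covered. Of intron bases up to 1 kb from an exon, 10.8% and 27.3% were covered, and of those 1 to 5 kb away 2.56% and 9.92%. Of intron bases 5 to 20 kb away, 0.629% and 3.41% were covered. Beyond 20 kb the shares were 0.852% and 2.91%, and with the bases of other coding genes left out 0.128% and 0.731%. Introns within 1 kb of an exon made up 12.2% of the bodies and held 48.4% of the covered bases in replicate 1 and 39.4% in replicate 2. In the 5′ 50% of the bodies, 6.22% and 17.4% of exon bases were covered against 0.438% and 2.38% of intron bases 5 to 20 kb away, and in the 3′ 50% the shares were 13.8% and 35.9% against 0.852% and 4.60%.

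**Figure D5:**
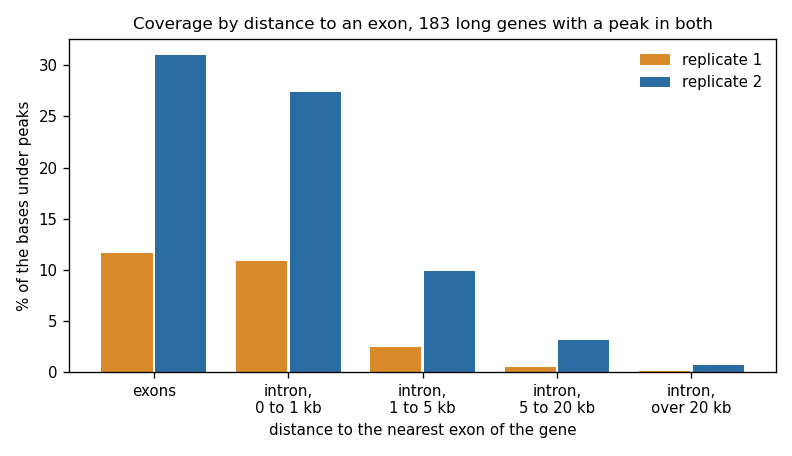
Share of bases under peaks (y axis, %) by distance to the nearest exon of the gene (x axis), over 183 long genes with a peak in both replicates and with bases inside other coding genes left out. Orange is replicate 1 and blue replicate 2; coverage is 11.7% and 31.0% in exons and 0.128% and 0.731% in introns more than 20 kb from an exon.

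Base composition moved with these calls. The median GC content of the gene body was 43.3% for long genes with a peak in both replicates, 42.5% for those with a peak in 1 and 41.1% for those with none. Within the genes with a peak in both, covered bases were 46.0% GC in replicate 1 and 46.4% in replicate 2, against 43.6% and 43.4% of the bases not covered. Of the covered bases 14.5% and 16.3% were soft-masked repeats in the reference, against 26.0% and 26.6% of those not covered. Repeats limit where reads can be placed, and the part of base composition and repeats in the pattern around exons was not tested.

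Around the length limit, the 3 shortest members were Pcbp3 and Plcxd3 at 200.03 and 200.06 kb, with no peak, and Umad1 at 200.18 kb, with 0.393 kb in replicate 2 inside another gene. Just under it, Atp9b (199.9 kb) had 4.75 and 24.2 kb covered, Clec16a (199.5 kb) had 3.19 and 13.7 kb, and Morc1 (199.7 kb) had no peak. In 5 long genes the excess of replicate 1 over replicate 2 was largest, each with a single peak of at most 0.523 kb in replicate 1 and none in replicate 2. These were Hdac9, Adk, Edil3, Ano3 and Nrg3.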

How the data were processed

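H3K36me3 ChIP-seq peaks of biological replicates 1 and 2 of unstimulated bone marrow-derived macrophages were used as the authors deposited them, with mm10 coordinates per the labels. Which aligner and peak caller were used is not given in the sources used here. The deposited score equals 10 times the −log10 p rounded down. The deposited enrichment is a ratio over the background of the authors' caller, and the −log10 p and −log10 q per peak come from the authors too. These were used only to describe or filter peaks within a list. A control experiment that the labels name was not analysed here. The lists hold no read counts, so depth is unknown and no value has a counting interval.

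Gene bodies, exons and transcript starts came from GENCODE M21 (GRCm38, the assembly of mm10), keeping the longest record where a symbol occurred more than once. Overlapping peaks were merged and clipped to the body, and covered kb, covered percent, the distance of the first peak from the start and of the last from the end were computed with the strand. Sequence came from RefSeq's GRCm38.p6. The interval steps were tested on simulated data.

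With 1 group of 2 samples no test across samples was made, and genes are not replicates. The members and lists were chosen with earlier results of these data known. Genes were named by rule. The rule took the 15 with most covered kb, the 5 with the highest covered percent and the 5 with the largest replicate difference each way. It also took the 3 at each extreme of length and of peak position, and the 3 on each side of the length limit. Each list gave its 3 most covered genes, and each list not about neurons also its 2 longest unmarked genes. Members named outside the rule were chosen after their values were seen. These were Trio, Dock10, Srgap2, Tbxas1, Snx29, Atg7, Frmd4a, Pde4b, March1, Ptpro, Rgl1, Creb5, Nav2, Scaper, Bank1, Atp5o and the overlapping genes. Alternatives were stricter −log10 q and enrichment limits, the authors' pooled and replicated lists, equal covered bases, other coding genes left out, other gene bodies and length limits, and each replicate alone. Added after seeing the data were closing gaps of up to 3 kb and exon distances per part of the body. The software was pysam 0.24.0, pandas 2.3.3 and numpy 2.4.6 under Python 3.11.15, with matplotlib 3.10.9 for figures.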

Additional observations from a re-analysis of the deposited data

Results flagged for a closer look

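The X chromosome lay outside the rule for long genes, and 1 of its 45 coding genes of 200 kb or longer had a peak in both replicates. This was Mid1, which encodes a ubiquitin ligase bound to microtubules, with 3.45 kb covered in replicate 1 and 6.50 kb in replicate 2.

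The authors' replicated list held peaks in 12 long genes with none in either replicate's own list. The most covered was Arhgap15, a GTPase-activating protein for Rac, with 2.31 kb in the replicated list, and the next was Scaper with 0.759 kb.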

How the results depend on the processing

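With replicate 1 left out, the long genes with at least 10 kb covered numbered 126, so that this count ran from 51 to 126 over the replicates left out, against 51 in both. With a deposited −log10 q of at least 5, the genes with a peak in both fell to 105, those with 10 kb to 12, and the median first peak moved to 149.6 kb, against 183 genes, 51 genes and 94.3 kb (mean of the replicates). With replicate 2 trimmed to the covered bases of replicate 1, the first peak was at 154.3 kb and 77.9% of covered bases lay in the 3′ 50% of the body, against 74.8%. The authors' replicated list gave 124 genes with 10 kb and their pooled list 129. From 150 kb, 335 genes had a peak in both and 85 had 10 kb, with 14.8% of covered bases in exons, against 12.6%. From 300 kb there were 67 and 13, with the first peak at 188 kb and 77.8% of covered bases in the 3′ 50%. Closing gaps of up to 3 kb, added after seeing the data, gave 78 genes with 10 kb and 11.1% of covered bases in exons. Under all settings other than leaving out a replicate, 95 of 111 summary values moved by less than the spread between the replicates, which is wide, or, for counts, by less than 1.5 times. With 1 replicate left out, total covered kb ran from 1829 to 5860.2 and the median first peak from 71.3 to 129.6 kb. A mean of 2 replicates cannot move past their spread when 1 is left out, so that spread is no check there.

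Of the 56 named members, 11 had more kb in the authors' replicated list and 17 in their pooled list by more than that spread. Leaving out other coding genes lowered Gm20388 to 2.96 kb and Fgfr2 to 1.86 kb (means of the replicates) and Gm37240 and Astn2 to 0. The longest coding transcript as the body moved none of the 56 beyond the spread. Leaving out 1 replicate gave from 9.88 to 67.1 kb for Runx1 and from 6.14 to 58.2 kb for Ppm1h. No paired analysis was possible because there is 1 group. The cause of these moves was not tested. Depth is unknown, so a long gene without a peak may carry the mark below detection.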
